A study of Mus musculus with 10 samples.

Results

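The genes for rod phototransduction and the rod disc examined here are Gnat1, Pde6a, Pde6b, Pde6g, Cnga1, Cngb1, Sag, Prph2 and Rom1. These 9 genes were listed by name and found in a mouse gene table, among 21887 protein-coding genes on the chromosomes covered by the data. Chromatin of Glast+ cells sorted from the retinas of C57BL/6 mice on postnatal day 28 was immunoprecipitated for H3K4me3, H3K4me1, H3K27me3 and H3K9me3 and sequenced, in 2 experiments (Exp1 and Exp2) for each of the 4 marks. All groups share this cell population, age and strain, no treatment was given, and the groups differ only in the antibody. Glast, the product of Slc1a3, is a glutamate transporter of Müller glia, the glial cells that span the retina, and the sort rests on that protein alone. Each library is described by its list of islands, which are stretches of enriched windows joined by the peak caller. The lists hold no read counts, so the depth behind them is unknown. The labels do not say which animals gave each experiment, and what separates Exp1 from Exp2 may include technical differences. With 2 experiments per mark, the smallest two-sided p of an exact permutation test between marks is 0.333. Values are therefore given per experiment without a test.

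Rods detect dim light. Light-activated rhodopsin turns on the G protein transducin, transducin turns on a phosphodiesterase that breaks down cyclic GMP, and the fall in cyclic GMP closes cation channels of the outer segment. Arrestin then ends the signal. These proteins sit in or beside a stack of membrane discs whose rims are held by tetraspanins. H3K4me3 is found at active gene starts, H3K4me1 around them and at enhancers, H3K27me3 at genes silenced by Polycomb complexes and H3K9me3 in heterochromatin.

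All 9 genes carried H3K4me3 in both experiments, as did 13821 of 21887 protein-coding genes over the gene or 1 kb around it. H3K4me3 lay within 1 kb of an annotated gene end at 8 of the 9, against 58.6% of all protein-coding genes, and at Sag over a start inside its annotated span. None of the 9 had an island of H3K27me3 or H3K9me3 anywhere between its ends. At an end, 0 of 9 had either mark, against 23.3% of all protein-coding genes for H3K27me3 and 13.4% for H3K9me3. An H3K4me3 island of at least 10 kb lay over or within 1 kb of 5 of the 9 genes in both experiments, against 0.790% of all protein-coding genes. Many of these islands also held an end of a neighbouring gene. The median width of the 9 was 15 kb, and 4 kb without such islands, when only Pde6b and Sag had at least 5 kb in both experiments. Each library pools all of its cells, so more cells of a type and more of the mark per cell cannot be told apart.

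Of 15 genes typical of Müller glia, 13 had H3K4me3 at the same end in both experiments. They include Glul, which encodes glutamine synthetase, Slc1a3, the gene of the sorted protein, Vim and Apoe. The exceptions were Aqp4, a water channel gene, and Abca8a, a transporter gene, which had H3K4me3 over the gene in both experiments but not at an end in both. Abca8a also had H3K9me3 at an end in both experiments. Of the 15, Rlbp1 and Sox9 had H3K27me3 at an end in both experiments (2 of 15, against 23.3% of all protein-coding genes). H3K4me3 without H3K27me3 was found at 11 of 15, against 51.9%. Of the microglial markers Aif1, Cx3cr1, P2ry12, Tmem119, Csf1r, C1qa and C1qb and 1 further gene, 0 of 8 had H3K4me3 at an end in both experiments, although Csf1r, C1qa and C1qb had islands of 1.2 to 2.8 kb in Exp2. Among endothelial, ganglion cell and amacrine cell markers it was at 2 of 7, 4 of 8 and 5 of 8, against 58.6% of all protein-coding genes. H3K27me3 lay at an end in both experiments at 2 of 7, 7 of 8 and 5 of 8 of these markers, against 23.3%. H3K4me3 without H3K27me3 was found at 1 of 7, 1 of 8 and 2 of 8, against 51.9%. Islands at rod genes were thus listed in the same libraries as those at genes of Müller glia. The share of rods among the sorted cells is not measured by these files, and its part in the values was not tested.

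The starts of 6 members could be placed from RefSeq promoter sequences of build GRCm38.p6 (mm10). They were Pde6b, Cnga1, Cngb1, Sag, Prph2 and Rom1. Promoters of photoreceptor genes are known to bind Crx, a homeodomain factor that prefers TAATCC, and Nrl, a leucine zipper factor whose sites often hold TGCTGA. The 250 bases before the starts of Sag, Cnga1 and Cngb1, the members with TAATCC, are shown 5′ to 3′ on the gene's strand. Capitals mark TAATCC or TGCTGA on either strand, and the motifs do not overlap one another here.
Sag (chr1:87803430-87803679, plus strand): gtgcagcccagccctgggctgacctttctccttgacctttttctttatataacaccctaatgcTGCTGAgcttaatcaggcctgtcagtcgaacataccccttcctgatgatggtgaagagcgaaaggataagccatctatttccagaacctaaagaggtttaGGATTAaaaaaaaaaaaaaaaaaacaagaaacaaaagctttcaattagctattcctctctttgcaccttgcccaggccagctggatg
Cnga1 (chr5:72642753-72643002, minus strand): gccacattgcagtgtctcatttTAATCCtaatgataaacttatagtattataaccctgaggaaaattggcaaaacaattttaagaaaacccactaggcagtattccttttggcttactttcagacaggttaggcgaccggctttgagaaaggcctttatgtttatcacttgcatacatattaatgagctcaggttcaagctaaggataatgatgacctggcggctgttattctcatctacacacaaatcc
Cngb1 (chr8:95306586-95306835, minus strand): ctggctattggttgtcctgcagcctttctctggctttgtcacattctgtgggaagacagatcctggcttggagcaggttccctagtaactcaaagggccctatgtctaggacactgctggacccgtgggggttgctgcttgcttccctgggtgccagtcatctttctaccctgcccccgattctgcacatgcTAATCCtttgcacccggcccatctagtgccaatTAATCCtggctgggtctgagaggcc
TAATCC was found in 3 of the 6 promoter windows, which run from 250 bases before to 50 bases after the start, and in 6.76% of the windows of 14725 protein-coding genes. Cngb1 held 2 copies, Cnga1 and Sag 1 each. TGCTGA was found in Pde6b and Sag, and in 18.3% of all windows. GGGCGG, the GC box, was found in Rom1 alone among the 6, and in 45.3% of all windows. A match describes the letters only, and binding was not measured.

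The promoters of Prph2, which had the widest mean island, and of Rom1 are shown for their CpG dinucleotides, in capitals. Both genes encode disc rim tetraspanins.
Prph2 (chr17:46910228-46910477, plus strand): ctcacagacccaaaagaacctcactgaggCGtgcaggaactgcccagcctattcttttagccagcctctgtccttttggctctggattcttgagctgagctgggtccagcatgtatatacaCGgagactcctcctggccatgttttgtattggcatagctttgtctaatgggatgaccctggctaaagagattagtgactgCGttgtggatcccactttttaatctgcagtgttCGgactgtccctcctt
Rom1 (chr19:8929357-8929606, minus strand): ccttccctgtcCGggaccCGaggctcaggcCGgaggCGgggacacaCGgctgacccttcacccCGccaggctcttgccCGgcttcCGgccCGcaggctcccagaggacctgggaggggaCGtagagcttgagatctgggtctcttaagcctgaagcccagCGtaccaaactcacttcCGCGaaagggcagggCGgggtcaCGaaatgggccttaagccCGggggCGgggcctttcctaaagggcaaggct
These 250 bases held 4 CpG in Prph2 and 17 in Rom1. The ratio of observed to expected CpG over the whole window was 0.170 in Cngb1, 0.203 in Sag, 0.204 in Pde6b, 0.319 in Cnga1, 0.35 in Prph2 and 0.588 in Rom1. The median of all windows was 0.559. A ratio under 0.4 was found in 5 of the 6 members and in 40.7% of all windows. H3K4me3 within 1 kb of the start in both experiments was found for 11.1% of genes with a ratio under 0.4 and for 87.4% of the others. It was found at all 6 members with a placed start, the 5 CpG-poor ones included, against 56.3% of genes with 1 annotated start. H3K4me1 within 1 kb of the start was found at 5 of the 6, all but Cnga1, against 50.9%. H3K27me3 was found at 0 of the 6 starts, against 23.1%, and H3K9me3 at 0, against 14.0%. An island of at least 5 kb in both experiments lay at the start of 4 of the 5 CpG-poor members, Pde6b, Cnga1, Sag and Prph2. Among all CpG-poor promoters 1.43% had one, and among the others 8.32%. The island at Prph2 in both experiments, and at Cnga1 in Exp1, also held an end of a neighbouring gene. Without such islands, only Pde6b and Sag had at least 5 kb in both experiments. The shares of all promoters include islands that hold an end of another gene. The plot of H3K4me3 against CpG content shows where the 6 members lie.

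**Figure D1:**
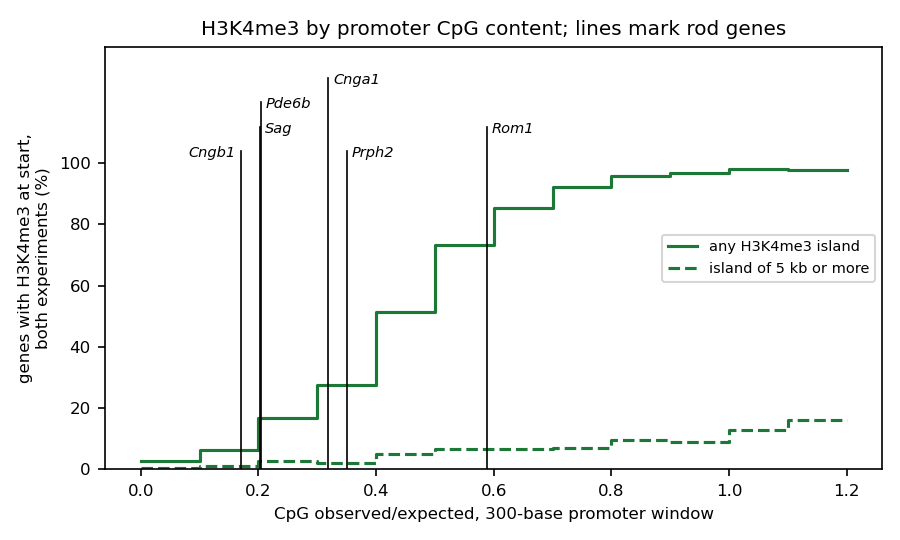
Share of protein-coding genes with H3K4me3 within 1 kb of the start in both experiments (vertical axis, percent) against the ratio of observed to expected CpG in the promoter window (horizontal axis, bins of 0.1). The solid line counts any island and the dashed line islands of at least 5 kb, black lines mark 6 rod genes, and 5 of these lie under a ratio of 0.4.

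Gnat1 encodes the alpha subunit of rod transducin (chromosome 9, 107674437 to 107679634). Its whole length of 5.2 kb lay under H3K4me3 in both experiments. The island over it was 9.4 kb wide in Exp1 and 29.4 kb in Exp2. The Exp1 list has a gap of 1 kb between this island and one of 16.6 kb that reaches the neighbouring transporter gene Slc38a3, whereas the Exp2 list has them joined. In both experiments the island over Gnat1 also held an end of Sema3f, a semaphorin gene. The large difference between experiments (19.4 kb ± 14.1, SD, n = 2) thus goes with that gap.

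Pde6a and Pde6b encode the catalytic subunits of the rod phosphodiesterase, and Pde6g its inhibitory subunit. At Pde6a (chromosome 18, 61220474 to 61289750) the island at the lower end was 22.4 kb wide in Exp1 and 12.8 kb in Exp2. In Exp1 it also held an end of Slc26a2, a sulfate transporter gene, and in Exp2 that end lay in an island of its own of 9.8 kb. Within Pde6a the mark covered 10.5 and 11.7 kb, or 15.2% and 16.9% of the gene. At Pde6b (chromosome 5, 108388373 to 108431743) the island over the start was 14.6 and 15.4 kb wide and held no end of another protein-coding gene. A further island at the far end of Pde6b, 5.2 and 6 kb wide, also held an end of Atp5k, a gene of the ATP synthase. At Pde6g (chromosome 11, 120447607 to 120453500) the island covered the whole gene, with 15 kb in Exp1 and 8.2 kb in Exp2. It held an end of Tspan10 in both experiments and in Exp1 ends of Oxld1 and Ccdc137 as well. Of the 3 subunit genes, Pde6b had the closest values between experiments (15 kb ± 0.566, SD, n = 2).

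Cnga1 and Cngb1 encode the subunits of the cyclic GMP-gated channel. At Cnga1 (chromosome 5, 72603696 to 72642752) the Exp1 list has a single island of 20.2 kb that reached from the gene across its start to an end of Nipal1. In Exp2 the same stretch was split into islands of 5.2, 8 and 2 kb separated by gaps of 0.8 kb, and the 8 kb island held the start. Within the gene the mark covered 13.8 and 12.6 kb, of which a separate island of 2.4 kb inside the gene, listed in Exp2 alone (listed p of 2.78e-11), makes up a part. Cngb1 (chromosome 8, 95239043 to 95306585) had the narrowest islands of the 9, at 7 and 4.8 kb. They held its start and no end of another protein-coding gene, and covered 7.97% and 5.31% of the gene.

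Sag encodes rod arrestin (chromosome 1, 87798143 to 87845158). It had no H3K4me3 island within 1 kb of either annotated end. Its RefSeq promoter places a start 5.54 kb inside the annotated gene, at position 87803680. That start lay in an island of 17.2 kb (Exp1) or 15.2 kb (Exp2) that held no end of another protein-coding gene. By its start, Sag was thus marked like the other members, and its absence from the count at gene ends goes with the longer annotated span.

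Prph2 encodes peripherin-2, a tetraspanin of the disc rim (chromosome 17, 46910478 to 46924933). Its island was 29.2 and 28 kb wide, covered the whole gene of 14.5 kb and reached an end of Ubr2. The experiments lay close together (28.6 kb ± 0.849, SD, n = 2). Rom1, the partner tetraspanin, is a gene of 1.98 kb (chromosome 19, 8927382 to 8929356) that lies between B3gat3 and Eml3. The islands of 17.6 and 12.4 kb that covered it also held ends of both neighbours. For Rom1 the width therefore describes a stretch with 3 genes.

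**Figure D2:**
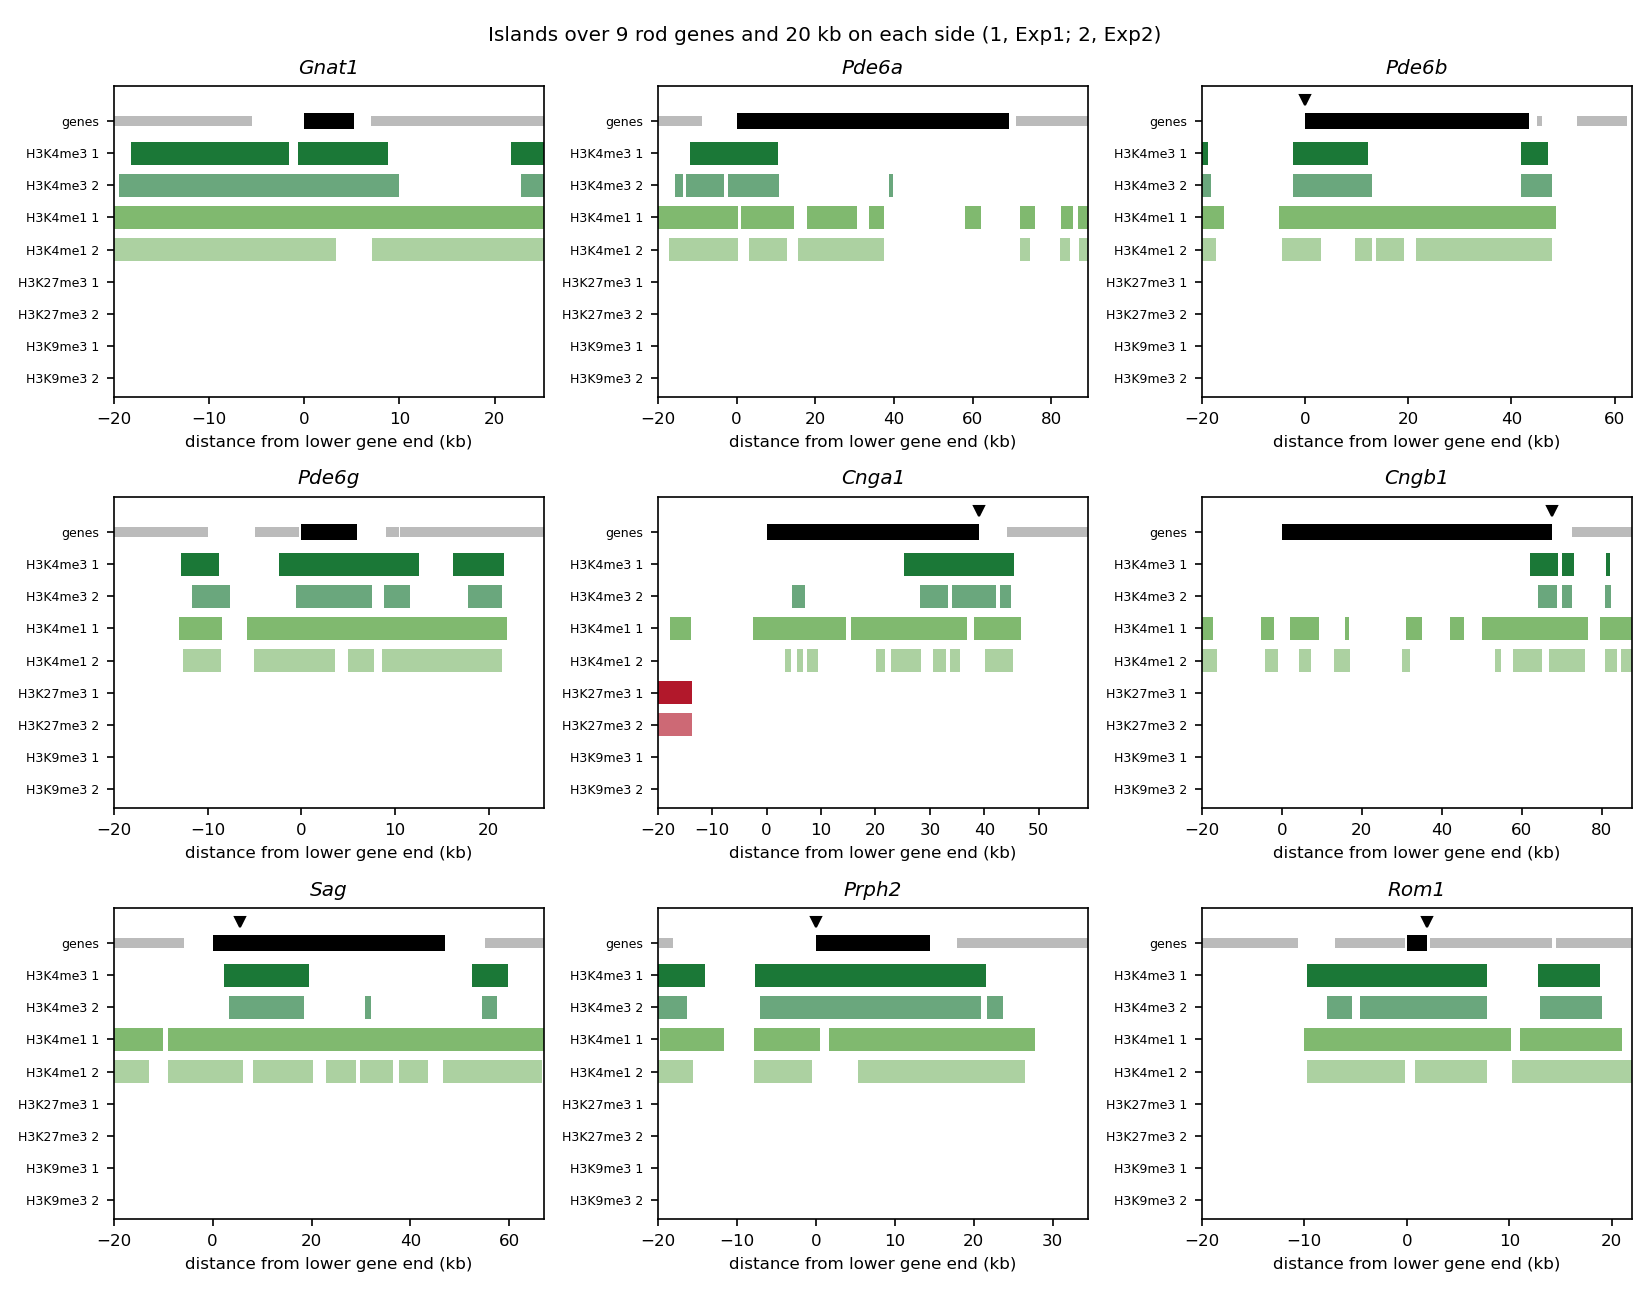
Islands of the 4 marks in Exp1 and Exp2 (rows) over each of the 9 genes and 20 kb on each side, by distance from the lower annotated gene end (kb). Black bars are the rod genes, grey bars other protein-coding genes, and triangles the 6 placed starts. H3K4me3 covers all 9 genes in part or whole, and the only repressive islands drawn are those of H3K27me3 beside Cnga1.

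The widths were set beside those of all genes with an H3K4me3 island over the gene or 1 kb around it. Their median was 3.6 kb in Exp1 and 3 kb in Exp2, and their 95th percentile 8.4 and 7 kb. The members ranged from 7 to 29.2 kb in Exp1, with a median of 17.2 kb, and from 4.8 to 29.4 kb in Exp2, with a median of 12.8 kb. In both experiments 8 of the 9 lay above the 95th percentile, and Cngb1 was the exception. Prph2 was wider than 99.8% of these genes in each experiment, and Cngb1 than 91.0% in Exp1 and 83.2% in Exp2. At least 5 kb in both experiments was reached by 8 members, against 7.73% of all protein-coding genes, and at least 10 kb by Pde6a, Pde6b, Sag, Prph2 and Rom1. In the authors' deposited lists the p-value of the widest H3K4me3 island at each member is 0 in both experiments. A listed p of 0 is frequent, at 37.5% of all H3K4me3 islands in Exp1 and 31.1% in Exp2. These shares count every island rather than the widest at each gene, so they are not a like comparison for the members.

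When islands holding an end of another protein-coding gene were left out, a choice made after the data were seen, the median over the 9 members fell from 15 kb to 4 kb. That of all protein-coding genes fell from 2.3 kb to 1 kb. Pde6b, Sag and Cngb1 then had an island in both experiments, Pde6a and Cnga1 in Exp2, and Gnat1, Pde6g, Prph2 and Rom1 in neither. An island of at least 5 kb in both experiments was left at 2 members, Pde6b and Sag, against 4.75% of all protein-coding genes. The length covered within the gene itself reached 5 kb in both experiments at 7 members, against 5.92% of all genes, and Cngb1 and Rom1 were the exceptions. It reached 10 kb in both experiments at Pde6a, Pde6b, Cnga1, Sag and Prph2, against 1.28% of all genes. The gene was covered over its whole length at Gnat1, Pde6g, Prph2 and Rom1, and the median cover of the 9 genes was 35.7%, beside 9.31% for genes with H3K4me3 and 3.51% for all protein-coding genes. The median was 50.4% for other rod outer segment genes, 42% for cone genes and 35.4% for genes of Müller glia, so this cover is not particular to the 9 genes.

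**Figure D3:**
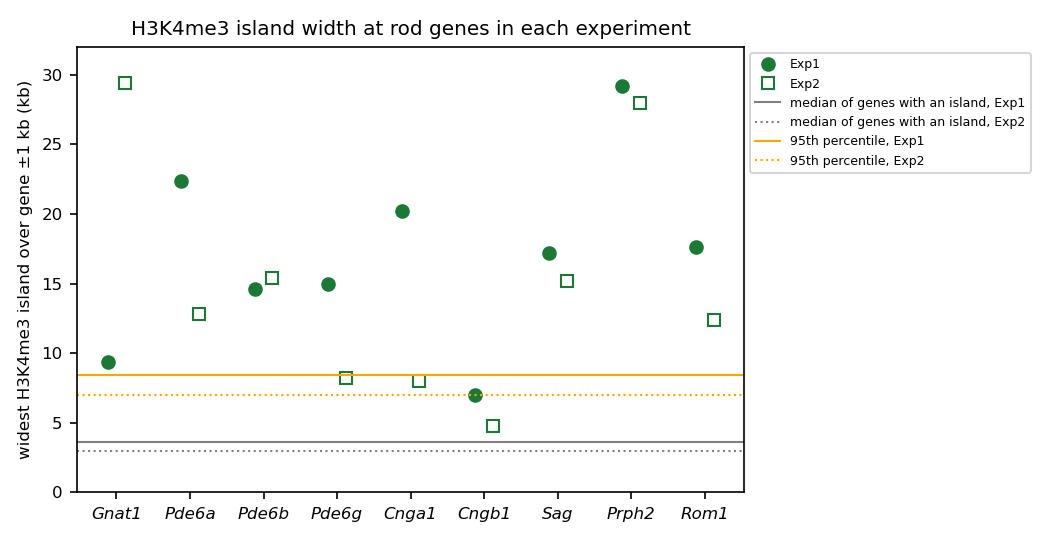
Width of the widest H3K4me3 island over each rod gene or 1 kb around it (kb), in Exp1 (filled circles) and Exp2 (open squares). Grey and orange lines give the median and the 95th percentile over all genes with an island, and only Cngb1 lies below the 95th percentile of its experiment.

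At the 6 genes with a placed start, the island reached further into the gene than upstream of it in both experiments. The same held for 68.6% of all genes whose island held the start, so this direction is frequent among marked genes. The reach into the gene was 12.2 and 13 kb at Pde6b, 13.9 and 12.9 kb at Sag and 21.5 and 20.9 kb at Prph2. It was 11.8 and 6.55 kb at Rom1, 13.8 and 4.95 kb at Cnga1 and 5.38 and 3.58 kb at Cngb1. At Prph2 and Rom1 it passed the far gene end. At least 5 kb downstream in both experiments was reached at Pde6b, Sag, Prph2 and Rom1, against 2.79% of all such genes. The median reach of those genes was 2 and 1.71 kb.

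H3K4me1 lay at an end of 8 of the 9 genes in both experiments, against 54.6% of all genes, and shared an end with H3K4me3 at 7, against 48.3%. Cnga1 had it at both ends in Exp1 and at neither in Exp2, where the nearest island began beyond the window around its start. The experiments differed more for this mark than for H3K4me3. H3K4me1 covered between 49.4% and 100% of the members' length in Exp1, with a median of 100%, and between 27.5% and 78.7% in Exp2, with a median of 63.2%. The median of all protein-coding genes was 14% in Exp1 and 5.79% in Exp2. It was 82.5% and 57% for other rod outer segment genes, 83.4% and 36.4% for genes of Müller glia and 17.6% and 4.74% for cone genes. High H3K4me1 cover is thus not particular to the 9 genes. At Pde6b, 1 island of 53.6 kb with a listed p of 0 spanned the gene and an end of Atp5k in Exp1. In Exp2 the gene held 4 islands of 3.4 to 26.4 kb, with listed p-values from 1.86e-07 to 7.92e-154. Sag lay in an island of 93 kb, which also held ends of Atg16l1 and Dgkd, in the first list and had 6 islands of 5.8 to 20 kb in the second. Cnga1 had the largest gap between the experiments, with 94.4% covered in Exp1 by 3 islands and 39.9% in Exp2 by 7, whose listed p-values ran from 3.7e-22 to 5.91e-06.

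H3K4me1 continued into gene stretches without H3K4me3. Such stretches, counted over the gene and 1 kb around it, came to 31.8 and 24.8 kb at Sag, 29.6 and 25.8 kb at Pde6b, 28 and 16.6 kb at Cngb1, 24.8 and 24 kb at Pde6a and 25.3 and 10.4 kb at Cnga1. The short genes Gnat1, Pde6g, Prph2 and Rom1 had at most 0.394 kb. The median of genes with H3K4me3 was 3.29 kb in Exp1 and 1.6 kb in Exp2, and long genes have more room for such stretches. Of the H3K4me3 at the members, 91.9% to 100% lay under H3K4me1 in Exp1 and 38.4% to 86.6% in Exp2. The median of the 9 was 100% and 65.1%, beside 100% and 81.5% for genes with H3K4me3. At Prph2, H3K4me1 had a gap of 1.2 kb that began 0.522 kb past the start in Exp1, and a gap of 5.8 kb in Exp2 that held the start. The start of Cnga1 also lay outside H3K4me1 in Exp2 and inside it in Exp1.

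Neither repressive mark was found at an end of a member in either experiment, so the count was 0 of 9 for H3K27me3, against 23.3% of all genes, and 0 of 9 for H3K9me3, against 13.4%. H3K4me3 without H3K27me3 at the ends was the state of 8 members, against 51.9%. Within 20 kb, 8 members had no H3K27me3 island in either experiment, against 52.8% of all genes, and 9 had no H3K9me3 island, against 67.0%. Free of both within 20 kb were 48.7% of all genes and 60.0% of those with H3K4me3 at an end, so this state is frequent among marked genes. The exception was Cnga1, which had an H3K27me3 island of 50 kb in both experiments, ending 13.7 kb from the gene on the side away from its start. Its listed p-values were 1.15e-08 and 3.33e-08, against list medians of 2.72e-25 and 2.03e-14. The other members lay 43.14 kb (Sag) to 220.6 kb (Rom1) from the nearest H3K27me3 island in Exp1, where the median of all genes was 35.98 kb. In Exp2, which has fewer islands, they lay 140.1 to 223.3 kb away, beside a median of 74.82 kb. For H3K9me3 the distances ran from 30.7 kb (Cnga1) to 686.5 kb (Pde6a) in Exp1 and from 111.6 kb (Pde6g) to 686.5 kb in Exp2. The medians of the 9 were 105.4 and 330.1 kb, beside 80.13 and 167.3 kb for all genes.

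**Figure D4:**
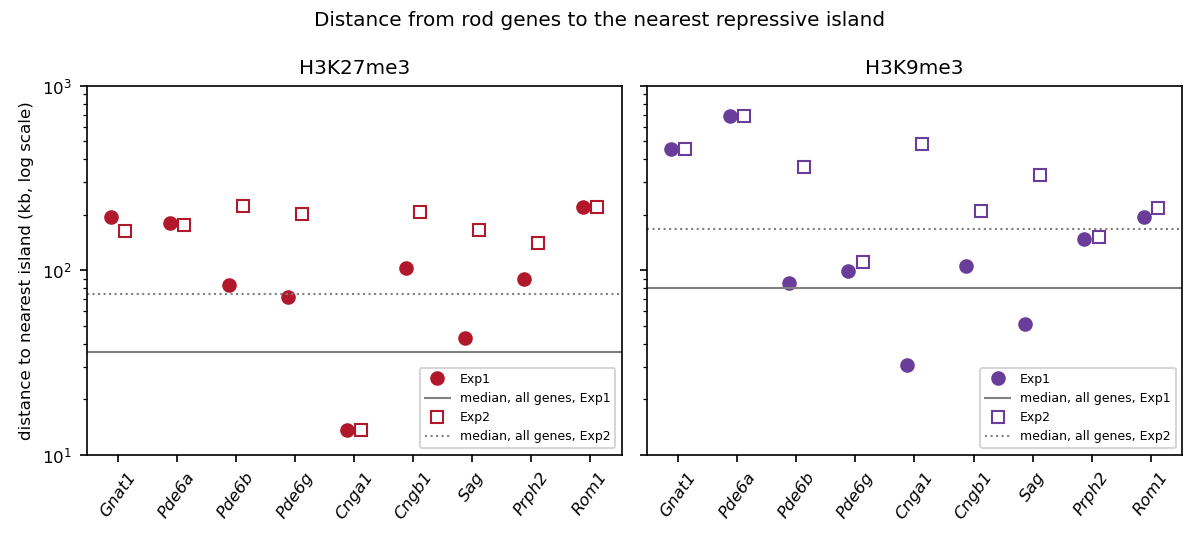
Distance from each rod gene to the nearest H3K27me3 island (left) and H3K9me3 island (right), in kb on a log scale, in Exp1 (filled circles) and Exp2 (open squares). Grey lines are the medians of all protein-coding genes, and Cnga1, at 13.7 kb, is the member closest to H3K27me3 in both experiments, while for H3K9me3 the closest is Cnga1 in Exp1 and Pde6g in Exp2.

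Further genes of the rod outer segment were described in the same way, to see how far the members stand for the pathway. Of 30 such genes, 29 had H3K4me3 at an end, 24 an island of at least 5 kb in both experiments and 11 one of at least 10 kb. The median width was 9.8 kb, beside 15 kb for the 9 members. Gnb1, the beta subunit of transducin, had 26.4 and 20.2 kb, and Gngt1, its gamma subunit, 6.6 and 6.2 kb. Grk1, rhodopsin kinase, had 11.8 and 10.6 kb, and Rcvrn, which encodes the calcium sensor recoverin, 13.8 and 13.2 kb. H3K27me3 in both experiments lay at 2 of the 30, the neighbouring genes Guca1a and Guca1b, which encode activators of guanylate cyclase and also carried H3K4me3. Rp1, a gene of the photoreceptor axoneme, had H3K4me3 of 16.4 and 14.4 kb over the gene, none at its annotated ends, and H3K27me3 at an end in Exp1 alone.

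Rod genes were set beside their cone paralogs, which do the same work in the other photoreceptor type. In all 7 pairs, each with a member, the island of the rod gene was the wider in both experiments. The beta and gamma subunits of transducin were not among these pairs. The rod gamma gene Gngt1 had 6.6 and 6.2 kb and the cone gene Gngt2 7.8 and 5.8 kb, so the cone gene was wider in Exp1. Gnb1, which encodes the beta subunit of rod transducin, had 26.4 and 20.2 kb, and Gnb3, which encodes that of cone transducin, 8.4 and 6.4 kb. The rod islands of Gnat1 and Pde6g in both experiments, and of Pde6a and Cnga1 in Exp1, also held ends of neighbouring genes, so those widths are not of the rod gene alone. Gnat2, cone transducin, had 7.2 and 6.8 kb beside the 9.4 and 29.4 kb of Gnat1. Pde6c, the cone catalytic subunit, had 9.4 and 5.8 kb and Pde6h, the cone inhibitory subunit, 6 and 5.6 kb. The channel genes Cnga3 and Cngb3 had 3.4 and 2.8 kb and 4 and 2 kb. Arr3, cone arrestin, had 4.8 and 4.6 kb, so that Sag was 3.58-fold and 3.3-fold wider. The smallest ratio was 1.31, between Gnat1 and Gnat2 in Exp1. Pde6c stands in 2 of the pairs, and the pairs were not tested. All 10 cone genes listed had H3K4me3 at an end, 0 of them with at least 10 kb in both experiments. Of these genes 2, Gngt2 and Cnga3, had H3K27me3 as well in both experiments. H3K27me3 also lay at an end of Opn1sw and Gnat2 in Exp1 alone and of Pde6c in Exp2 alone. Cngb3 had H3K9me3 at an end in both experiments.

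The 15 genes of Müller glia had a median width of 5.4 kb, and Glul, with 13 and 10.4 kb, was the only one with at least 10 kb in both experiments. Slc1a3 had 6 and 4.8 kb, Vim 5 and 3.6 kb and Apoe 4 and 3.6 kb. The retinaldehyde-binding protein gene Rlbp1 and Sox9 carried H3K27me3 at an end as well, with H3K4me3 over the gene of 7.2 and 3.6 kb and of 6.6 and 4.8 kb. Photoreceptor transcription factor genes had a median of 10.8 kb, with 5 of 10 at 10 kb or more in both experiments. Crx had 26.6 and 25.8 kb, Otx2 18.2 and 18.4 kb, Nrl 11.8 and 11.4 kb and Prdm1 5.8 and 5 kb. Nr2e3, a rod factor gene with H3K4me3 at neither annotated end, had 12.6 and 11.8 kb over the gene. Rxrg, a cone factor gene, had 3 and 2.4 kb and H3K27me3. Amacrine cell genes had a median of 6.5 kb, with 2 of 8 at 10 kb or more in both experiments. Bipolar cell genes had a median of 5.85 kb, with 1 of 14 at 10 kb or more in both, Isl1 with 18 and 16 kb. Of the bipolar cell genes, 6 of 14 carried H3K27me3 at an end, against 0 of the 9 rod genes. Among them, Trpm1, Prkca and Pcp2 had H3K4me3 at an end in both experiments and H3K27me3 in neither. Gng13 had H3K4me3 in both and H3K27me3 in Exp2 alone. Grm6, Isl1 and Bhlhe23 had both of these marks at an end, and Cabp5 had H3K27me3 without H3K4me3. Over the gene, Cabp5 had H3K4me3 of 5.2 and 2.6 kb. H3K9me3 lay at an end of Grm6, Isl1 and Cabp5 as well, in both experiments. The lists differ in gene length, with medians of 39.1 kb for the rod members and 9.79 kb for Müller glia, and the differences between lists were not tested.

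**Figure D5:**
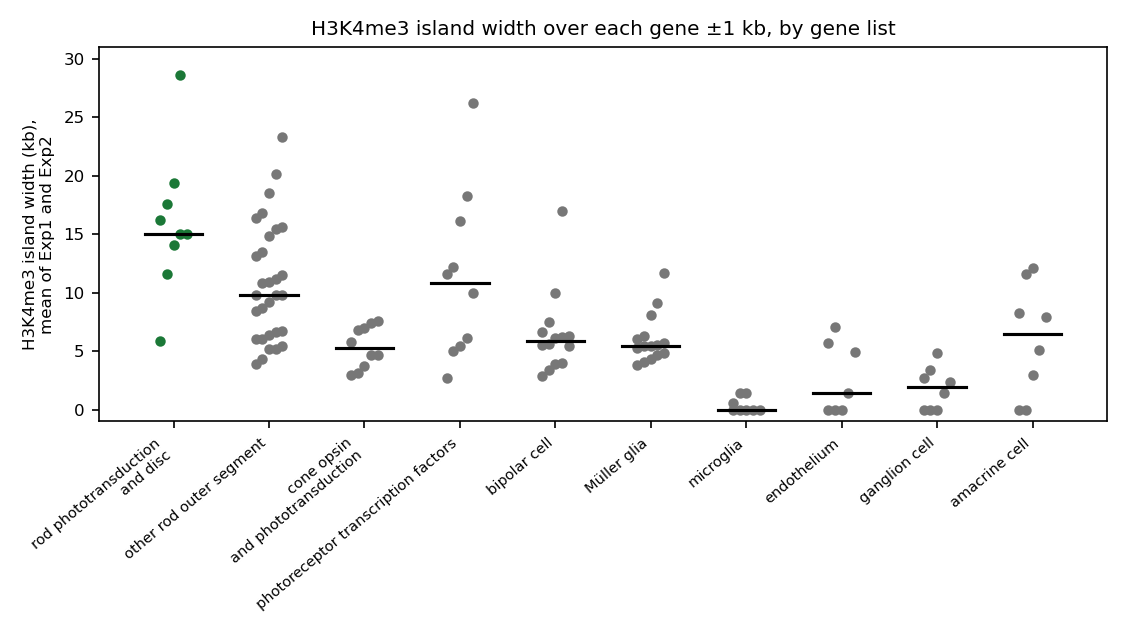
Width of the widest H3K4me3 island over each gene or 1 kb around it (kb, mean of Exp1 and Exp2, with 0 for no island), for the 9 rod genes (green) and 9 further gene lists (grey). Each point is a gene and each black line a list median, which is 15 kb for the rod genes and 5.4 kb for Müller glia.

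The genes most like the members in island cover were sought over all 8 lists, by the Euclidean distance between a gene's 8 cover shares, taken with 1 kb on both sides, and the members' medians. The nearest were Ptpmt1, Ppp4c, Slc16a3, Tmem134 and Pcdhgc4, with distances of 0.0398 to 0.0654 on a scale where the share of each list runs from 0 to 1. Of the members, Pde6b (0.141) and Sag (0.152) lay nearest to the median, at ranks 31 and 48 of all genes, and Prph2 (0.905) and Rom1 (0.908) furthest, with H3K4me3 over their whole length. Rom1 ranked 6024, so the members vary widely among themselves and cover shares alone do not single them out.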

How the data were processed

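Islands of 8 ChIP libraries were analysed, and the 2 input libraries of the series were not used here. The authors deposited 1 island list per library, with a p-value for each island, which could be an adjusted one, since no source used here says. Per the submitters' processing notes, SICER was used for mm10, with bedtools 2.17, SAMtools 1.3.1, BWA 0.7.5a and FastQC. How SICER was set, and whether against input, is not stated there. Island widths were multiples of 200 bp for the H3K4 marks, 3000 bp for H3K9me3 and 5000 bp for H3K27me3, so repressive islands are coarser and widths are compared only within a mark. The largest deposited p-value was 0.492.

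Gene positions came from a RefSeq table of GRCm38.p6. A gene counted as marked when, in both experiments, an island overlapped the same gene end with 1 kb either side, by at least 1 bp. Starts were taken from RefSeq promoter windows for the 14731 protein-coding genes with 1 start. Width is that of the widest island over the gene or 1 kb around it, unless gene ends are named. No test across genes was run. Interval functions were tested on simulated data. Python 3.11.15, NumPy 2.4.6 and pandas 2.3.3 were used.

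The members and lists were chosen with earlier results of these data known, and the limits of 5 and 10 kb, the CpG limit of 0.4 and the motifs after the files were seen. All members were named, as were their cone paralogs, for each list up to 4 genes of its commonest state and 4 of any other state (the endothelial, ganglion and amacrine cell lists are given as counts only), the 5 genes most alike in cover, and neighbours with an end in an H3K4me3 island over a member.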

Additional observations from a re-analysis of the deposited data

How the results depend on the processing

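Of 61 alternatives over 8 results, 57 left the count within 1.5 times, or the median within 1 SD between experiments, of its main value. Main counts of 7 or 8 could rise to 9 at most, which is within that limit, so only a fall could have moved them. The counts of H3K27me3 and H3K9me3 stayed at 0 of 9 with each experiment alone, either experiment, windows of 500 bp and 2.5 kb, 50% cover, the stricter p-values and whole genes. The median H3K4me3 width at gene ends, 15 kb, was 12.4 to 15 kb with 1 experiment left out. Over the gene or 1 kb around it, the median width was also 15 kb. By that measure it was 4 kb without islands that hold an end of another protein-coding gene, a choice made after the data were seen. The median H3K4me3 cover of the gene, 35.7%, was 38.6% with 5 kb on both sides, 34.5% with islands at or below the median p-value of their list, and 34.9% to 36.6% with 1 experiment left out. With marks combined within each experiment first, as a replicate block, 7 members had H3K4me3 and H3K4me1 at the same end and 8 H3K4me3 without H3K27me3, as in the main counts. Depth is unknown, so an island that is missing may lie under the limit of detection.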

Other observations

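Further H3K4me3 islands were listed within 20 kb of some members or inside them. At Cngb1, H3K4me3 islands of 3 and 2.4 kb held an end of Tepp and began 2.42 and 2.62 kb from the gene. At Sag, islands of 7.2 and 3 kb at an end of Dgkd lay 5.44 and 7.44 kb away. Upstream of Pde6b, an island was 4.8 kb wide in the first experiment and 4.2 kb in the second, with a listed p of 0 in both. It lay 18.8 and 18.2 kb from Pde6b. In both experiments it held an end of Gm10419, a long noncoding RNA gene, but none of a protein-coding gene. At Pde6a, an island of 1 kb was listed inside the gene in Exp2 alone (listed p of 5.21e-11), where it overlapped the pseudogene Rps2-ps10. At Sag, one of 1.2 kb was listed in Exp2 alone (4.38e-05).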
